A study of Mus musculus with 4 samples.

Results

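The 33 genes described here encode the machinery of autophagy and of the lysosome, measured in long-term haematopoietic stem cells (HSCs) of the mouse, which maintain the blood over a lifetime. They were chosen by symbol, with no filter on expression, as 20 genes of autophagosome formation and cargo capture, 11 lysosomal hydrolases and membrane proteins, and the transcription factor genes Tfeb and Tfe3. Each was represented by 1 probe set, and together they make up 33 of the 23185 genes that carried a symbol on the array. Marrow cells of the phenotype Lin- ckit+ Sca+ received γ-rays at a dose of 0, 0.02, 0.1 or 0.5 Gy before transplantation, and the recipients of all groups, the 0 Gy group included, had themselves been given lethal irradiation. Long-term HSCs were sorted 6 months later by the surface phenotype Lin- ckit+ Sca+ Flk2- CD48- CD150+. Each dose was represented by 1 array, with no replicate and no spread within a dose, and the sources used here state neither whether RNA of several recipients was pooled nor the strain or age of the mice. Since no donor marker is part of the gate, the sorted cells are taken, not shown, to descend from the graft.

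In autophagy, a double membrane grows around cytoplasm or damaged organelles, closes into an autophagosome and fuses with the lysosome, where acid hydrolases digest the cargo. The ULK kinases and a class III phosphatidylinositol 3-kinase start the membrane, ATG9 and WIPI proteins help it grow, and a pair of ubiquitin-like conjugation reactions couple ATG8 proteins (the LC3 and GABARAP families) to its lipids. TFEB and TFE3 switch on lysosomal and autophagy genes through an E-box, the CLEAR element, in their promoters. Mice that lack the conjugation enzyme ATG7 in blood-forming cells lose functional HSCs, and autophagy in HSCs is known for clearing mitochondria and keeping the cells quiescent.

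The sequence of the promoters was examined first, since the CLEAR element links the transcription factors of this set to their targets. RefSeq promoter windows of assembly GRCm38.p6, from 250 bases before to 50 after a gene's start, were matched for 27 of the 33 genes. The palindromic E-box CACGTG, which reads the same on both strands, was present in a window of 10 of these 27 genes (37.0%), namely Atg3, Atg5, Atg7, Atg14, Ctsa, Ctsd, Ctsl, Gaa, Lamp1 and Mcoln1. The same motif was present for 11.9% of the 9136 genes with a promoter entry among those at or above the median gene mean on the array, and for 8.09% of all 27025 genes with an entry. By window, 10 of 31 windows of the set held it (32.3%), against 7.15% of all 32851 windows. The longer palindrome TCACGTGA, which contains the E-box and is the inner part of the CLEAR element, was present for 4 of the 27 genes (14.8%), against 2.35% of the 9136 genes. The palindrome of 10 bases that adds a G before it and a C after it, the full CLEAR element, was present for 0 of the 27 genes, against 0.821% of the 9136. The 4 promoters with the longer palindrome follow, with that of Lamp1, which held 4 copies of the E-box. Capitals mark each match, extended to TCACGTGA where the flanking bases fit.
Atg3, chr16:45158579-45158878, plus strand: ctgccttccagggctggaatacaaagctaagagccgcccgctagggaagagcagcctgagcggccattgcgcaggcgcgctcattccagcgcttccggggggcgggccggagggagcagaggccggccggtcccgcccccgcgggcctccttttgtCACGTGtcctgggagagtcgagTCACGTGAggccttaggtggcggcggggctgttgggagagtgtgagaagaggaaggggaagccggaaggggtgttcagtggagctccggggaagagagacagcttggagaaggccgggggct
Ctsa, chr2:164833523-164833822, plus strand: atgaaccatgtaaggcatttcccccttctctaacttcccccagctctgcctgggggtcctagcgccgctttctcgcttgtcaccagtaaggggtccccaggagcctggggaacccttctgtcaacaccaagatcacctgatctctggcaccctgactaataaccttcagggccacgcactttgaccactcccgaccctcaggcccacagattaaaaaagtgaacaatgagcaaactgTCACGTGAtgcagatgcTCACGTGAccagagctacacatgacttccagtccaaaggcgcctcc
Ctsd, chr7:142387778-142388077, minus strand: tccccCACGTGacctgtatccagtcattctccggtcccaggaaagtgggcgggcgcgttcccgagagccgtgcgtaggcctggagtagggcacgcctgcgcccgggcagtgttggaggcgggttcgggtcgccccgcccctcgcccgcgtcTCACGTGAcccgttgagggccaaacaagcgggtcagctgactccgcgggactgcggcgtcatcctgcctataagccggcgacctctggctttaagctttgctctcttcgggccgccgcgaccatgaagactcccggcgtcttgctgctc
Mcoln1, chr8:3500269-3500568, plus strand: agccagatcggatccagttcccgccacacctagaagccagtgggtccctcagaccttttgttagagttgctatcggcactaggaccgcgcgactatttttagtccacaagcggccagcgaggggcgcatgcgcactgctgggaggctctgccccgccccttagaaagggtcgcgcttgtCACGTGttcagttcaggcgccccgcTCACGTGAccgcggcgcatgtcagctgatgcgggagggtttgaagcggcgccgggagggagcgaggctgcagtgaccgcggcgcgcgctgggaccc
Lamp1, chr8:13158911-13159210, plus strand: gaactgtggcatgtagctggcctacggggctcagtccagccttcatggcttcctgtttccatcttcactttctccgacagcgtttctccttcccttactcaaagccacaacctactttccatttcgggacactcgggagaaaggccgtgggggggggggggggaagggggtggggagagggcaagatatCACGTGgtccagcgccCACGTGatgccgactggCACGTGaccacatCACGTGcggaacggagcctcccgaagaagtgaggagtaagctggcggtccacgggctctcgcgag

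By role, the E-box was found for 4 of 5 hydrolase genes, 3 of 4 conjugation enzyme genes, 2 of 4 lysosomal membrane protein genes and the class III kinase subunit gene Atg14. It was found for 0 of 3 ULK complex genes, 0 of 4 ATG8 genes, 0 of 3 ATG9 and WIPI genes and neither transcription factor gene. Among other genes of the pathway it was present for 26 of 121 (21.5%), with 4 of 9 V-ATPase genes and 7 of 28 other hydrolase genes. A match is a description of these letters in the window and not evidence of a bound site.

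**Figure D1:**
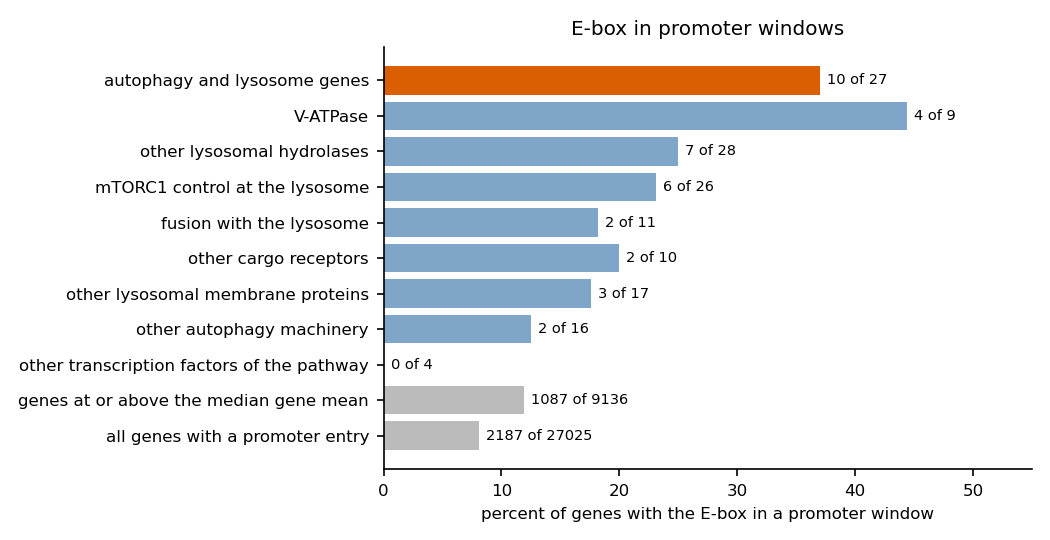
Percent of genes with the E-box in at least 1 promoter window (horizontal axis), for the autophagy and lysosome genes (orange), 8 lists of other pathway genes (blue) and 2 backgrounds (grey), with counts beside the bars. The set stood at 37.0%, against 11.9% of genes at or above the median gene mean and 8.09% of all genes with a promoter entry.

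Transcripts of the sort markers were checked on each array, in log2 intensity. Kit lay between 10.12 and 10.57 and Slamf1, which encodes CD150, between 7.16 and 8.65 over the 4 arrays. The lineage markers Cd3e, Cd4, Cd8a and Itgam were below the median gene mean of 4.06 on every array. Of the other transcripts whose products the gate excludes, Flt3, which encodes Flk2, had 4.46, 4.76, 5.44 and 4.76 at 0, 0.02, 0.1 and 0.5 Gy, above 4.06 throughout. Cd48 had 4.13, 3.08, 4.11 and 4.13, just above that level on all but the 0.02 Gy array, and the granulocyte gene Ly6g had 2.65, 2.81, 2.58 and 4.35, above it at 0.5 Gy. The medians of all 25206 probe sets were close, from 4.01 to 4.07. All 33 autophagy and lysosome genes averaged 4.06 or more, as did 11593 named genes, which serve as the brighter genes that the set is read against. Of the 33 genes, 17 had exactly the same value on at least 2 arrays, a share of 51.5%, against 46.3% of the brighter genes. Wipi1 and Atg16l1 did not differ at all (3.30% of the brighter genes), and Becn1, Ctsa, Mcoln1 and Wipi2 had 1 value on the 3 irradiated arrays and another at 0 Gy (12.1%, against 3.44%). A range of 1.5-fold or more over the 4 arrays was reached by 9 of 33 genes (27.3%, against 32.9%).

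The study set each dose against the 0 Gy array. Over the 33 genes, differences were small: the widest was a log2 difference of -0.88, and 0 genes reached 2-fold at any dose, where 4.04%, 4.27% and 4.64% of the brighter genes did at 0.02, 0.1 and 0.5 Gy. Past 1.5-fold at 0.02 Gy, 3 of 33 genes stood above 0 Gy and 0 below it, a share of 9.09%, against 12.6% of the brighter genes (6.44% above and 6.20% below). At 0.1 Gy, 1 was above and 2 were below, again 9.09%, against 13.0% (5.50% and 7.48%). At 0.5 Gy, 0 were above and 1 was below, which is 3.03%, against 14.2% (5.92% and 8.25%). These shares lie under those of the brighter genes at each dose, though 1 gene makes up 3.03% of the set. The brighter genes were not matched to the set for intensity. They start at a mean of 4.06, while the median of the 33 genes was 7.02 to 7.08 on the 4 arrays. The median absolute log2 difference was 0.20, 0.13 and 0.08 by rising dose, against 0.17, 0.16 and 0.18 for the brighter genes. By that measure the set was slightly wider than the brighter genes at 0.02 Gy and narrower at 0.1 and 0.5 Gy. The median log2 difference was 0.00 at 0.02 Gy, -0.08 at 0.1 Gy and 0.00 at 0.5 Gy, where the brighter genes had medians of 0.00 at each dose. Each comparison is a difference between 2 arrays that share the 0 Gy array, with no test. The arrays measure a mixture of cells, so fewer cells of a type and less RNA per cell cannot be told apart.

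**Figure D2:**
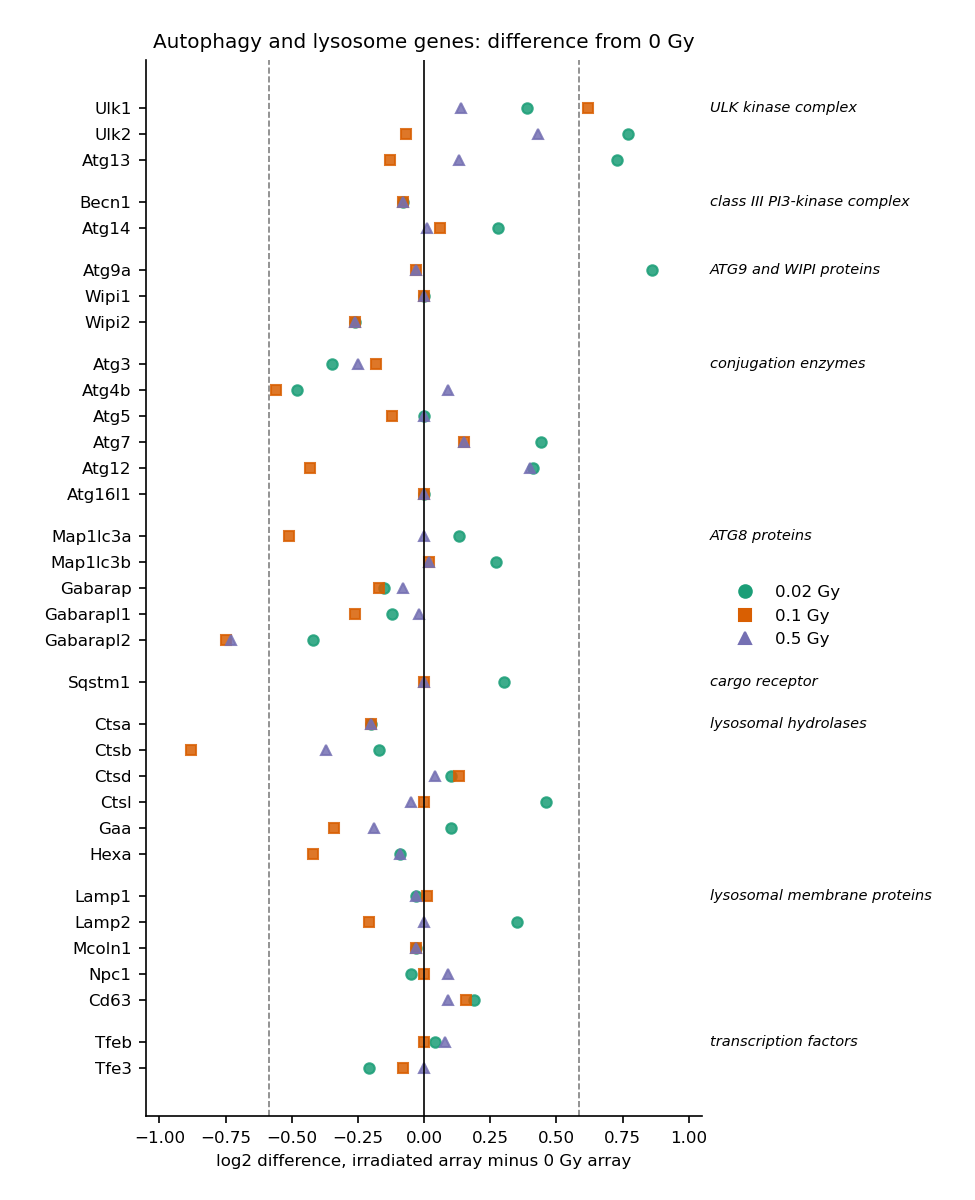
Log2 difference of each irradiated array from the 0 Gy array (horizontal axis) for the 33 genes, grouped by role, with 1 point per dose and dashed lines at 1.5-fold. Points lie between -0.88 for Ctsb at 0.1 Gy and 0.86 for Atg9a at 0.02 Gy, and equal values hide each other, as for Wipi2 at -0.26.

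Of the 3 genes in the set that belong to the complex that starts the autophagosome, Ulk2 and Atg13 were highest at 0.02 Gy. The kinase gene Ulk2, which helps begin autophagy, had values, in order of dose, of 6.22, 6.99, 6.15 and 6.66 in log2 intensity, so 0.02 Gy was high, 0.1 Gy lay near 0 Gy and 0.5 Gy lay between. It was 1.70-fold higher at 0.02 Gy than at 0 Gy, and 4.30% of the brighter genes were as high or higher. Atg13, the subunit that ties the kinase into its complex, had 6.68, 7.41, 6.55 and 6.81. Only its 0.02 Gy value stood clear of the others, at 1.66-fold the 0 Gy level. Ulk1, the partner kinase, had 6.22, 6.61, 6.84 and 6.36, and so peaked at 0.1 Gy, where it was 1.54-fold higher than at 0 Gy. These 3 genes thus lay above 0 Gy at 0.02 and 0.5 Gy, with medians of 0.73 and 0.14, and at 0.1 Gy Ulk1 alone did. The complex as a whole did not share this. Its other genes Rb1cc1 and Atg101, outside the set, had 6.91, 7.21, 6.86 and 6.84, and 6.40 on all 4 arrays.

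Among the genes that extend the membrane, Atg9a, whose product moves lipids between the leaflets of the growing membrane, had 6.21, 7.08, 6.18 and 6.18 at the 4 doses. Its 0.02 Gy array stood apart, 1.82-fold above 0 Gy, a difference reached or passed by 3.30% of the brighter genes, while 0.1 and 0.5 Gy shared 1 value just under 0 Gy. Wipi2, which brings the ligase subunit ATG16L1 to the membrane, had 7.34 at 0 Gy and exactly 7.08 at each irradiated dose. Wipi1 had 6.10 on all 4 arrays. Of the class III kinase genes, Atg14, which directs that kinase to autophagy, had 5.90, 6.18, 5.96 and 5.92. Becn1, its scaffold, had 5.91 at 0 Gy and 5.83 at each irradiated dose.

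The conjugation enzymes differed from one another in direction, with medians of 0.00, -0.15 and 0.05 at 0.02, 0.1 and 0.5 Gy. At each dose 0 of 6 genes were at 1.5-fold from 0 Gy, against 12.6%, 13.0% and 14.2% of the brighter genes. A list of 6 is too short for that count to say much. Atg12, the ubiquitin-like protein joined to ATG5, had 7.64, 8.05, 7.20 and 8.04. It was high at 0.02 and 0.5 Gy and low at 0.1 Gy, where it was 1.80-fold below 0.02 Gy. Atg4b, the protease that trims ATG8 proteins and later frees them from lipid, had 6.24, 5.76, 5.68 and 6.33, and so was low at 0.02 and 0.1 Gy but not at 0.5 Gy. Atg7, the enzyme that activates both ubiquitin-like proteins, had 5.95, 6.39, 6.10 and 6.10. Atg3, which passes ATG8 proteins to lipid, had 8.97, 8.63, 8.79 and 8.72. Atg7 was thus above 0 Gy and Atg3 below it at all 3 doses. Atg5 had 6.65 on 3 arrays and 6.53 at 0.1 Gy, and Atg16l1 had 5.04 on all 4.

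Within the ATG8 family, Gabarapl2 was the gene that lay furthest from 0 Gy. It had 6.49, 6.07, 5.74 and 5.76 at 0, 0.02, 0.1 and 0.5 Gy, so each irradiated array lay below 0 Gy and the 0.1 and 0.5 Gy arrays were nearly level. It was 1.68-fold lower at 0.1 Gy and 1.66-fold lower at 0.5 Gy, where 4.65% and 5.56% of the brighter genes were as low or lower. Its relatives Gabarap, with 11.03, 10.88, 10.86 and 10.95, and Gabarapl1, with 8.83, 8.71, 8.58 and 8.81, were also below 0 Gy at all 3 doses, by at most 0.26. Map1lc3b, which encodes the LC3 protein used as the standard marker of autophagosomes, had 10.12, 10.39, 10.15 and 10.15. Map1lc3a had 5.14, 5.27, 4.63 and 5.14, with 0.1 Gy low. The cargo receptor gene Sqstm1, whose product p62 carries ubiquitinated proteins to LC3, had 7.75 at 0, 0.1 and 0.5 Gy and 8.04 at 0.02 Gy.

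**Figure D3:**
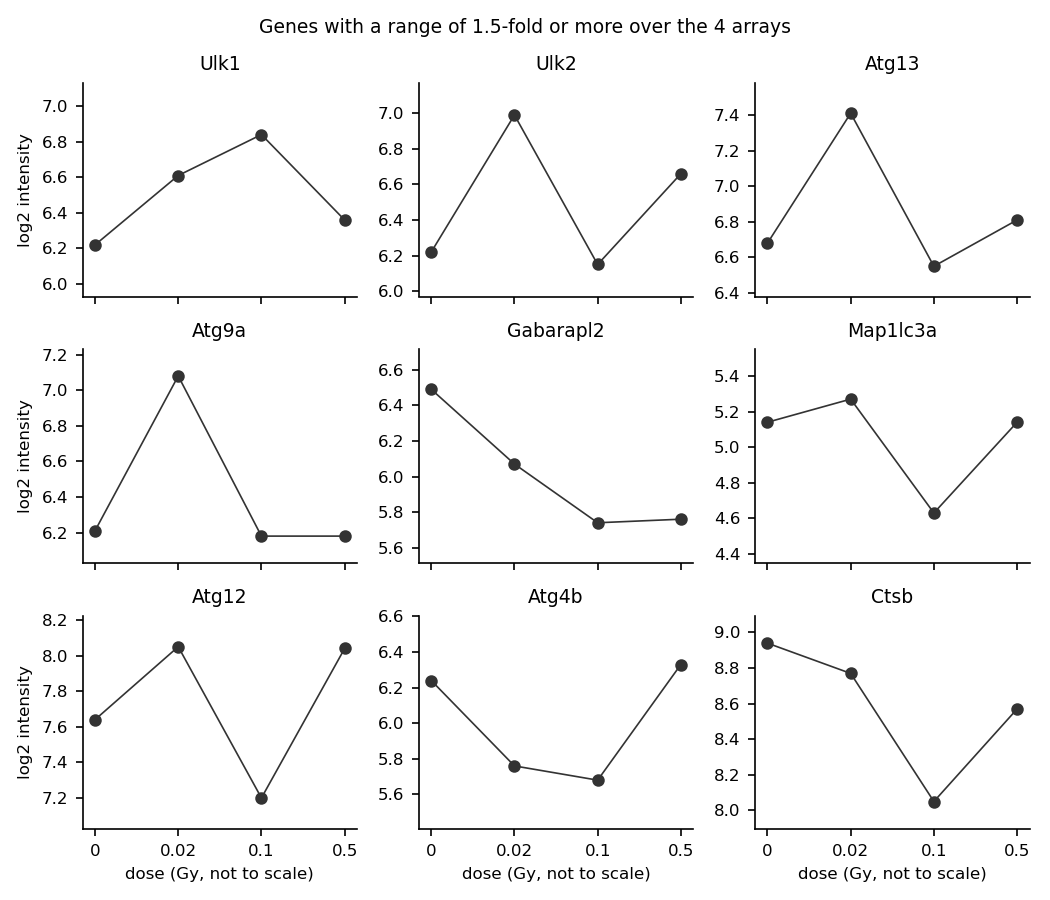
Log2 intensity (vertical axes, all spanning the same range) on the single array of each dose (horizontal axes, dose in Gy, not to scale) for the 9 genes with a range of 1.5-fold or more. Ulk2, Atg13 and Atg9a peak at 0.02 Gy, Ulk1 peaks at 0.1 Gy, Gabarapl2 is highest at 0 Gy, Atg4b is low at 0.02 and 0.1 Gy, and Ctsb, Atg12 and Map1lc3a are lowest at 0.1 Gy.

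Of the lysosomal hydrolase genes, Ctsb, a cysteine protease gene, was the one past 1.5-fold. It had 8.94, 8.77, 8.05 and 8.57 at the 4 doses, so 0.1 Gy was low and all irradiated arrays lay below 0 Gy. At 0.1 Gy it was 1.84-fold below 0 Gy, and 3.50% of the brighter genes were as low or lower. Hexa, which encodes a glycosidase subunit that takes part in ganglioside breakdown, had 8.94, 8.86, 8.53 and 8.86, and Gaa, the acid glucosidase that digests glycogen, had 8.38, 8.49, 8.04 and 8.20. Both were lowest at 0.1 Gy. Ctsl, another cysteine protease gene, had 7.06, 7.53, 7.06 and 7.02, and so stood out at 0.02 Gy. Ctsd, the main aspartic protease of the lysosome, stayed within 0.13 of its 0 Gy value of 9.91, and Ctsa had 8.31 at 0 Gy and 8.11 at each irradiated dose. Over the 6 hydrolase genes the median log2 difference, by rising dose, was 0.01, -0.27 and -0.14.

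Of the 5 lysosomal membrane genes, 0 reached 1.5-fold at any dose, against 12.6%, 13.0% and 14.2% of the brighter genes by rising dose. With so few genes, that count says little about them. Lamp1, a main glycoprotein of the lysosomal membrane, lay between 9.96 and 10.00 on all 4 arrays, a range of 0.04. Lamp2, its relative, had 9.12, 9.47, 8.90 and 9.12, and was high at 0.02 Gy and low at 0.1 Gy. Cd63, a tetraspanin of late endosomes and lysosomes, had 10.48, 10.68, 10.65 and 10.58, above 0 Gy at every dose by at most 0.19. Npc1, which exports cholesterol, and Mcoln1, a cation channel of the lysosome, stayed within 0.09 of 0 Gy. The transcription factor genes also lay close together: Tfeb had 4.23, 4.27, 4.23 and 4.31, close to the median gene mean, and Tfe3 had 6.10, 5.89, 6.02 and 6.10.

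It was then counted how often each array stood apart from the other 3. The 0.02 Gy array was the highest by 0.1 log2 units or more for 11 of 33 genes (33.3%), against 14.9% of the brighter genes. The 0.1 Gy array was the lowest by as much for 9 of 33 (27.3%), against 13.8%. The 0.5 Gy array was neither highest nor lowest by this margin for any of the 33 genes, against 14.0% and 16.6% of the brighter genes. The 11 genes highest at 0.02 Gy were Ulk2, Atg13, Atg14, Atg9a, Atg7, Map1lc3a, Map1lc3b, Sqstm1, Ctsl, Gaa and Lamp2. The set as a whole was not shifted at that dose, with 16 genes above 0 Gy, 14 below it and 3 equal. The 9 lowest at 0.1 Gy were Atg13, Atg5, Atg12, Map1lc3a, Gabarapl1, Ctsb, Gaa, Hexa and Lamp2. The contrast of 0.1 Gy with 0.02 Gy gave the most genes past 1.5-fold, with 0 higher and 6 lower (18.2%, against 14.1% of the brighter genes, 5.90% higher and 8.15% lower): Ulk2, Atg13, Atg9a, Atg12, Map1lc3a and Ctsb. Of these, Atg13 and Map1lc3a are on both lists above. At 0.5 Gy against 0.1 Gy, Atg12 and Atg4b were higher and 0 genes lower (6.06%, against 12.4%, 5.91% higher and 6.51% lower). At 0.5 Gy against 0.02 Gy, 0 were higher, and Atg13 and Atg9a were lower (6.06%, against 14.5%, 5.92% higher and 8.62% lower). The margin of 0.1 was chosen after the values were seen, the arrays are single, and the genes share them, so this is a description with no test.

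**Figure D4:**
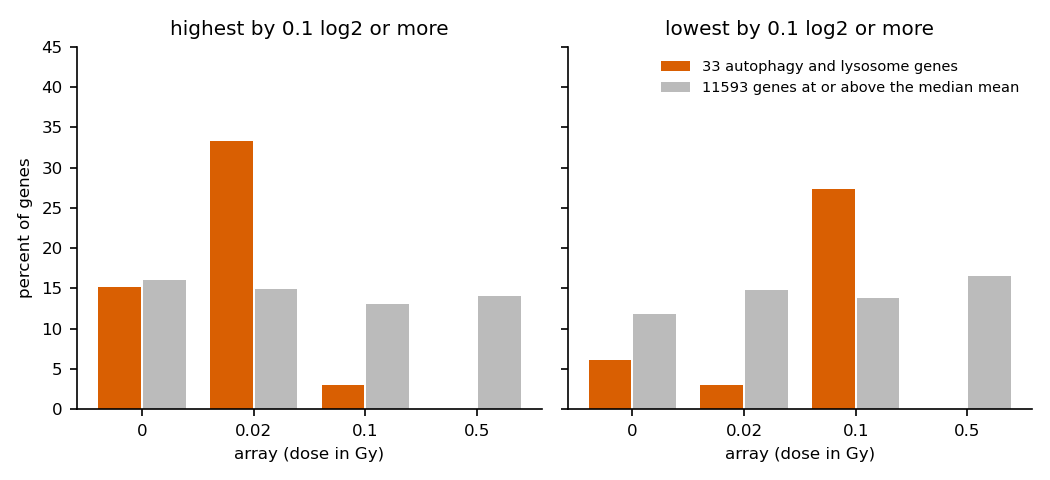
Percent of genes (vertical axis) for which the array of a given dose (horizontal axis) was the highest (left) or the lowest (right) of the 4 by 0.1 log2 units or more, for the 33 autophagy and lysosome genes (orange) and the 11593 brighter genes (grey). The orange bars reach 33.3% for highest at 0.02 Gy and 27.3% for lowest at 0.1 Gy.

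Markers of other cells also differed between these arrays. The log2 of the summed intensity of 10 measured B and plasma cell markers was 10.63, 11.54, 9.79 and 9.46 at 0, 0.02, 0.1 and 0.5 Gy, and that of 11 neutrophil and granulocyte progenitor markers was 8.61, 9.61, 10.36 and 9.47. Jchain, the brightest gene of the B and plasma cell list at 0, 0.02 and 0.1 Gy, had 9.75, 10.69, 8.46 and 7.32. Cd79a had 3.80, 6.61, 4.40 and 3.30, and Pax5 had 4.26 on all 4 arrays. Ms4a1 and Ebf1 were below 4.06 on every array. For 10 measured monocyte, macrophage and dendritic markers the same sum was 10.14, 10.12, 8.35 and 9.55, with Csf1r, Adgre1, Ccr2, Cd14, Fcgr1, Itgax and Mrc1 below 4.06 on every array. That sum is mostly Cd74, a chaperone of antigen presentation that B cells also express, with 9.94, 9.68, 7.87 and 9.23. Cx3cr1 lay between 4.19 and 4.45. Within that list, Cd68, a lysosomal glycoprotein gene of macrophages, had 6.10, 7.78, 4.02 and 6.18, high at 0.02 Gy and low at 0.1 Gy, as Atg13, Map1lc3a, Gaa and Lamp2 were. That shape was not particular to Cd68. The sort marker gene Slamf1 had it, with 7.67, 8.65, 7.16 and 7.77. So did Xbp1, with 8.49, 9.06, 8.14 and 8.40, and Prdm1, with 4.46, 5.45, 4.06 and 4.46, both of the B and plasma cell list. Of the neutrophil list, Lcn2, Ltf and Ngp were below 4.06 on every array. Of all 11 measured genes of that list, 7 were at least 1.5-fold above 0 Gy at 0.1 Gy, against 5.50% of the brighter genes. The 11 were not filtered by intensity here, since a high 0.1 Gy value itself raises the mean over the 4 arrays. For 7 measured erythroid markers the sum was 11.64, 11.24, 11.78 and 12.11. At 0.5 Gy 5 of these 7 were at least 1.5-fold above 0 Gy (71.4%, against 5.92% of the brighter genes). For 7 megakaryocyte and platelet markers the sum was 11.69, 11.54, 11.16 and 11.43. At 0.1 Gy 3 of these 7 were at least 1.5-fold below 0 Gy (42.9%, against 7.48% of the brighter genes). For 8 T and NK cell markers the sum lay between 6.58 and 6.69. The part of other cells in the differences above was not tested.

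Directions shared by all doses were counted next. Above 0 Gy at all 3 doses were 6 of 33 genes (18.2%, against 17.9% of the brighter genes), namely Ulk1, Atg14, Atg7, Map1lc3b, Ctsd and Cd63. Below it at all 3 were 10 (30.3%, against 24.5%): Becn1, Wipi2, Atg3, Gabarap, Gabarapl1, Gabarapl2, Ctsa, Ctsb, Hexa and Mcoln1. Of these 16 genes, 0 passed 1.5-fold at all 3 doses, while 2.04% of the brighter genes were that far below 0 Gy throughout. With 4 different values, 0 of 33 genes followed the order of dose upwards (1.94% of the brighter genes did) and 0 downwards (2.94%).

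A limma fit over all named genes set the irradiated arrays jointly against 0 Gy and, with Benjamini-Hochberg adjustment at 0.05, called 0 of the 33 genes, against 0.919% of all named genes. At an unadjusted p under 0.05 it took in 3 of 33 (9.09%, against 11.8%), Wipi2, Ctsa and Becn1. Wipi2 had the lowest adjusted p, 0.0548 in limma, for a mean difference of -0.26. All 3 had exactly equal values on the irradiated arrays, which leaves the fit no residual spread, and 154 of the 213 genes it called over the whole table (72.3%) were of that kind, against 4.71% of all named genes. A straight line in dose, fitted with limma over the same genes, called 0 of 33 at the adjusted threshold and 0 at an unadjusted p under 0.05, where 13.7% of all named genes lay, and 0 genes in all after adjustment (0.00%). The lowest adjusted p of the set in that fit was 0.428, for Npc1. The fit of irradiated arrays against 0 Gy takes the single 0 Gy array to have the spread of the rest. It counts differences between doses as error, whereas the fit of a line counts departures from that line as error.

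Of 147 other genes of the pathway in 8 lists, 139 were measured. At 0.02 Gy 9 were at least 1.5-fold higher than 0 Gy and 5 lower, at 0.1 Gy 5 higher and 13 lower, and at 0.5 Gy 3 higher and 13 lower, with medians of 0.00, -0.03 and -0.05. All of these lay among the 132 at or above the median gene mean, where they made up 10.6%, 13.6% and 12.1%, against 12.6%, 13.0% and 14.2% of the brighter genes. Of the brighter genes, 2.04% were at least 1.5-fold below 0 Gy at all 3 doses. The single gene of the 132 past 1.5-fold in a single direction throughout, a smaller share, was Naglu, a hydrolase that degrades heparan sulfate. It had 7.28, 6.17, 5.35 and 5.88 at 0, 0.02, 0.1 and 0.5 Gy, all irradiated arrays lying well below 0 Gy with log2 differences of -1.11, -1.92 and -1.40.

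mTORC1, a kinase complex that is active on the lysosome, restrains autophagy when nutrients are plentiful, and a list of 27 genes held its anchors, activators and inhibitors. Of the 26 at or above the median gene mean, 15.4%, 11.5% and 11.5% were past 1.5-fold at 0.02, 0.1 and 0.5 Gy, near the shares of the brighter genes. Prkaa1, the catalytic subunit gene of the energy sensor AMPK, which activates ULK1, had 8.17, 7.43, 7.66 and 6.82, lowest at 0.5 Gy. Ddit4, an inhibitor of mTORC1, had 6.08, 6.79, 4.95 and 5.94, high at 0.02 Gy and low at 0.1 Gy. Rragb, a GTPase that recruits mTORC1, had 5.82, 5.72, 5.81 and 4.66. Lamtor3, a subunit of its lysosomal anchor, had 8.03, 6.80, 7.78 and 7.01. The probe set of its pseudogene Lamtor3-ps had 3.57, 5.58, 5.12 and 6.02, above 0 Gy where Lamtor3 was below it, and since near-identical copies can share signal, the Lamtor3 values are uncertain. Tsc1 had 6.19, 6.00, 5.41 and 5.96. The list had medians of -0.02, -0.10 and -0.13.

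Cargo receptor genes other than Sqstm1 had medians of -0.10, -0.14 and -0.24 over 11 genes at 0.02, 0.1 and 0.5 Gy. Calcoco1, a receptor for autophagy of the endoplasmic reticulum, had 7.04, 6.47, 5.85 and 5.81, below 0 Gy throughout. Bnip3, a receptor for mitochondria, had 7.22, 6.81, 7.25 and 6.40, and Fundc1, another, had 6.71, 6.74, 6.85 and 6.00. Both were lowest at 0.5 Gy, whereas Bnip3l, the receptor that clears mitochondria from red cell precursors, stayed within 0.31 of its 0 Gy value of 9.29. Ncoa4, the receptor for ferritin, had 5.01, 5.01, 6.00 and 4.95, high at 0.1 Gy.

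Of the other autophagy machinery, the ATG4 proteases related to Atg4b differed among themselves. Atg4a had 4.69, 4.67, 5.08 and 3.68, and Atg4c had 5.28, 4.95, 5.33 and 4.44, both low at 0.5 Gy. Atg4d had 4.49, 4.71, 5.11 and 4.71, high at 0.1 Gy. Pik3r4, the regulatory subunit gene of the class III kinase, had 6.77, 6.27, 6.31 and 5.77, and Atg10, which joins ATG12 to ATG5, had 4.78, 5.61, 5.29 and 5.57. Pik3r4 thus lay below 0 Gy and Atg10 above it at every dose. For fusion with the lysosome, Stx17, the SNARE of the autophagosome, had 7.40, 7.22, 6.70 and 6.94, and the HOPS tether gene Vps18 had 5.18, 4.94, 4.38 and 5.20, both lowest at 0.1 Gy.

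Among other lysosomal genes, Ctss, a cathepsin of antigen-presenting cells, had 5.95, 7.22, 5.55 and 5.40, high at 0.02 Gy. Acp2, a lysosomal phosphatase gene, had 6.29, 7.23, 7.01 and 6.57, above 0 Gy at each dose. Galc, which digests galactolipids, had 4.83, 5.28, 4.61 and 3.50, and Scarb2, an integral membrane protein of lysosomes, had 7.54, 7.49, 6.67 and 7.15. Galc was lowest at 0.5 Gy and Scarb2 at 0.1 Gy. The V-ATPase, the proton pump that acidifies the lysosome, had medians of 0.00, -0.02 and -0.02 over 14 measured genes. Its single difference past 1.5-fold was Atp6v0a1 at 0.1 Gy, with 5.14 at 0.1 Gy and 5.79 at 0 Gy. By rising dose, 0.00%, 7.14% and 0.00% of the 14 were past 1.5-fold, against 12.6%, 13.0% and 14.2% of the brighter genes. Of the other transcription factor genes, Zkscan3, a repressor of autophagy genes, had 5.59, 5.93, 5.88 and 6.47, while Foxo3, a factor that promotes autophagy in HSCs, stayed within 0.04 of 6.02.

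The genes past 1.5-fold were set beside the promoter motif. Over the 10 genes with it the median log2 difference, by rising dose, was 0.05, -0.02 and -0.03. At each dose 0 of these 10 were past 1.5-fold, against 12.6%, 13.0% and 14.2% of the brighter genes. The 17 genes with a promoter entry but no E-box had medians of 0.04, -0.08 and 0.00. By rising dose, 3, 2 and 1 of these 17 were past 1.5-fold, to be read against the same shares of the brighter genes. They were Ulk2, Atg13 and Atg9a at 0.02 Gy, Ulk1 and Gabarapl2 at 0.1 Gy, and Gabarapl2 at 0.5 Gy. The 6 genes with no promoter entry include Ctsb, past 1.5-fold at 0.1 Gy. No test of this contrast was made.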

How the data were processed

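Total RNA of sorted long-term HSCs was labelled as biotinylated cDNA with an Affymetrix whole-transcript kit, per the labels' protocols, and hybridised to 1 array per dose. The authors deposited log2 intensities, 1 value per probe set and Entrez gene. Base 2 is an inference from the range of the values. The submitters' processing notes name Partek without a role. How background was corrected and arrays were normalized, and the genome build, is not given in the sources used here. Arrays were grouped by the labelled dose, and the number of arrays limits the precision.

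Values were used as deposited. Of 25206 probe sets, 2021 carry no symbol in the platform table and were left out. Values within 1e-09 were called equal. Each dose was set against 0 Gy as a log2 difference, with a threshold of 1.5-fold, in pandas 2.3.3. limma 3.58.1 in R 4.3.3 (lmFit, eBayes) fitted irradiated against 0 Gy, and dose as a line, each with 2 residual degrees of freedom, after a test on simulated data. Alternatives tried were median centring, cyclic loess or quantile normalization, a 2-fold threshold, a filter at the median gene mean, the mean of the other 3 arrays as reference, an intensity trend, dose rank and leaving out arrays. The 33 genes, the pathway lists and the marker lists were chosen with earlier results of these data known. All 33 genes may be named, and of the other lists for each list and dose up to 4 genes of largest absolute difference among those at or above the median gene mean, and any at 1.5-fold in a single direction at all 3 doses. Sort and cell type markers, Cd68, Lamtor3-ps, Rb1cc1 and Atg101 were named outside that rule. Promoter sequences are RefSeq's.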

Additional observations from a re-analysis of the deposited data

How the results depend on the processing

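Normalization changed little: of 99 differences (33 genes at 3 doses), 99 stayed within 0.1 log2 units of the deposited values under quantile normalization and under median centring, and 97 under cyclic loess, where the largest shift was 0.11. At a threshold of 2-fold, the counts of 3 higher at 0.02 Gy, 1 higher and 2 lower at 0.1 Gy and 1 lower at 0.5 Gy each became 0. With the mean of the other 3 arrays as reference, the gene higher at 0.1 Gy and the gene lower at 0.5 Gy were no longer past 1.5-fold, leaving 0 of each. Over the 16 genes with 4 different values, an alternative added after seeing the data, the median at 0.02 Gy was 0.12. The causes were not tested. The limma fits called 0 of the 33 genes under each alternative run, with 0 to 0 called when an array was left out, while the fit of irradiated against 0 Gy called from 0 to 320 of all genes. The count of genes highest at 0.02 Gy was 9 to 11 and of those lowest at 0.1 Gy 7 to 9 over the 3 normalizations and the deposited values. No paired analysis was possible because each dose has 1 array and the labels give no replicate numbers. With single arrays, differences of the size seen here cannot be separated from variation between arrays.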
